A study of Mus musculus with 6 samples.

Results

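The genes described here encode the receptor chains, kinases and transcription factors through which activated T cells sense interleukin 2 (IL-2) and its relatives. They are 10 genes taken by name from the gene rows of the deposited table, which holds 22095 gene rows: the receptor genes Il2ra, Il2rb, Il2rg, Il4ra, Il15ra and Il21r, the Janus kinase genes Jak1 and Jak3, and the transcription factor genes Stat5a and Stat5b. All 10 were found. Levels are in TPM, a measure of transcript abundance that is corrected for transcript length and adds up to the same total in every library, so levels of different genes can be set side by side. The test took the 6466 genes whose average over the 6 libraries reached 10 TPM, among them 9 of the 10; Il15ra, with an average of 9.06 TPM, was left out.

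Receptors of this family share the common gamma chain, encoded by Il2rg, which carries JAK3, and pair it with a private chain that usually carries JAK1. IL-2 is bound with high affinity by a complex of the alpha, beta and gamma chains (Il2ra, Il2rb and Il2rg), and IL-15 uses the same beta and gamma chains with its own alpha chain. When cytokine brings the chains together, the kinases phosphorylate the receptor and STAT5, which moves to the nucleus and activates genes of growth and survival. In cytotoxic (CD8) T cells stimulation through the T cell receptor induces the alpha chain, and IL-2 then drives expansion and effector differentiation.

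All libraries came from naive CD8 T cells isolated out of splenocytes of C57BL/6 mice, a common inbred strain, with no genetic change named in the labels. The cells had been activated for 48 h with antibodies to CD3 and CD28 in medium that contained recombinant mouse IL-2. The 3 control libraries came from cells given the solvent DMSO, and the 3 others from cells given ponatinib at 10 nM, a leukaemia drug that blocks the ABL kinase and a broad range of further tyrosine kinases. The labels give no age of the mice and do not tell whether replicates stem from different animals or cultures, and every p-value here therefore measures the spread between these libraries, which may be technical. The comparison asks which of these transcripts differed when cells were activated in the presence of the inhibitor.

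With ponatinib the tested genes of this set did not all move in 1 direction. Il2rg, Jak1 and the Il4ra gene row rose, Jak3 and Il2ra fell, and Il2rb, Il21r, Stat5a and Stat5b did not pass the test. So 5 of 9 tested genes passed at an adjusted p under 0.05 (limma on log2(TPM + 1), Benjamini-Hochberg over all tested genes), 3 higher and 2 lower. Among all 6466 tested genes the shares were 39.7% called in either direction, 29.9% higher and 9.88% lower, so that a call by itself does not set these genes apart. The groups did not overlap in 6 of the 9 genes, beside 53.4% of all tested genes (39.4% with ponatinib higher and 14.0% with it lower). Their median log2 fold change was 0.15, beside 0.10 over all tested genes.

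The proximal promoters of Il2ra and Il2rg and of Jak1 and Jak3 are shown because in both pairs the partners moved in opposite directions. Each line gives, 5′ to 3′ on the gene's strand, the bases before the RefSeq transcription start (GRCm38.p6) that lie outside the annotated gene, with motif matches in capitals. The Il2ra stretch is chr2:11642542-11642791 (plus strand), that of Il2rg chrX:101268256-101268505 (minus), that of Jak1 chr4:101265283-101265473 (minus) and that of Jak3 chr8:71676133-71676295 (plus).
Il2ra: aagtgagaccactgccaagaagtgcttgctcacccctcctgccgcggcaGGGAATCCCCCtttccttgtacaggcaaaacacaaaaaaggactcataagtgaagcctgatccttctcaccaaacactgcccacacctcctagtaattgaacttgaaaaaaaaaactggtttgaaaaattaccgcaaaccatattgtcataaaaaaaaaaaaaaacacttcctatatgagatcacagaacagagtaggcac
Il2rg: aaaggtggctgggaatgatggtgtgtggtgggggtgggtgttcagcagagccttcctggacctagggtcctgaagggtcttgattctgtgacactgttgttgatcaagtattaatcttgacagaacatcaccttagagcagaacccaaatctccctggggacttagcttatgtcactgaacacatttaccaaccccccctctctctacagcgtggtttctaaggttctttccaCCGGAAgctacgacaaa
Jak1: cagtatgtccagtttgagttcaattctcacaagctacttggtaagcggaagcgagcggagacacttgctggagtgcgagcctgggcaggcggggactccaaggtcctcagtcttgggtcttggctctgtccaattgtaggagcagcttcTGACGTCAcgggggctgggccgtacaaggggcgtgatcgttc
Jak3: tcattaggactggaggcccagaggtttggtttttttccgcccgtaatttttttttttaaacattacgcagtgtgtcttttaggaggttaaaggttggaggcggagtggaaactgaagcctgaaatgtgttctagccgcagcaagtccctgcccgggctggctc
In these lines the capitals mark a pair of overlapping matches to the NF-kB consensus in Il2ra, starting 201 and 200 bases before the start, the ETS core CCGGAA in Il2rg (17 bases before) and the cyclic AMP response element TGACGTCA in Jak1 (101 bases before), while Jak3 has no match. Both strands of the 250 bases before each start were searched for 5 motifs, picked after the sequences had been seen. Of all windows, 12 belong to 9 of the 10 genes, and Il2rb has no entry. The STAT motif TTCNNNGAA was in 0 of the 12 windows and in 7.02% of all 32851 windows. CCGGAA was in 3 of the 12 and 12.0% of all, TGACGTCA in 1 and 1.55%, the AP-1 motif TGANTCA in 1 and 6.75%, and the NF-kB consensus in 2 and 7.25%. No motif searched contains another. A match here is a description of the letters, not a binding site.

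Of the IL-2 receptor genes, the gamma chain gene rose and the alpha chain gene fell. Il2rg, which encodes the common gamma chain, stood at 371, 358 and 331 TPM with DMSO (replicates 1 to 3) and at 528, 494 and 486 TPM with ponatinib. The groups lay far apart, and the lowest ponatinib library was above the highest DMSO library. The mean was 1.42 times as high with ponatinib, at 503 ± 22.1 against 354 ± 20.3 TPM (SD, n = 3 per group; log2 fold change 0.51, SE 0.06, limma adjusted p = 7.44e-04). Il2rg (ENSMUSG00000031304) spans bases 101264378 to 101268255 of chromosome X (GRCm38, minus strand).

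Il2ra, the inducible alpha chain that makes the receptor sensitive to low IL-2, was at 309.7, 288 and 412 TPM with DMSO and at 221, 251 and 260.3 TPM with ponatinib. The groups did not overlap, but DMSO replicate 3 was well above the other controls. The mean went from 336 ± 65.9 to 244 ± 20.6 TPM, and Il2ra fell by 0.45 on the log2 scale (SE 0.13, limma adjusted p = 0.0257). Without DMSO replicate 3 the log2 fold change was -0.30 (adjusted p = 0.00742), and the call was lost without ponatinib replicates 1, 2 and 3 in turn (adjusted p of 0.0958, 0.0607 and 0.0546). Il2ra (ENSMUSG00000026770) spans bases 11642807 to 11693193 of chromosome 2 (plus strand).

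Il2rb, the beta chain shared with the IL-15 receptor, had 287, 275 and 366 TPM with DMSO and 216, 256 and 270.4 TPM with ponatinib. All ponatinib libraries were below all DMSO libraries, with DMSO replicate 2 and ponatinib replicate 3 almost touching. The difference of -0.32 on the log2 scale (95% interval -0.60 to -0.04) did not pass over all genes (limma adjusted p = 0.0706). It did when libraries were scaled by medians of ratios (-0.42, adjusted p = 0.0154) or by quantile normalization (-0.36, adjusted p = 0.0403). Without DMSO replicate 3 it was -0.19 (adjusted p = 0.0876).

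Il15ra, the private chain that binds IL-15, was the least abundant of the 10. It had 9.34, 7.66 and 14.1 TPM with DMSO and 7.64, 7.48 and 8.18 TPM with ponatinib. The groups overlapped, and the highest value was again that of DMSO replicate 3. With the minimum lowered to 1 TPM its log2 fold change was -0.34 (limma adjusted p = 0.197).

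Il4ra, which pairs with the gamma chain to bind IL-4, had 19.0, 17.8 and 20.8 TPM with DMSO and 26.1, 25.3 and 25.6 TPM with ponatinib in its gene row. All ponatinib libraries were higher, and they differed little among themselves. Il4ra rose by 0.40 on the log2 scale (SE 0.07, limma adjusted p = 0.00419), from 19.2 ± 1.48 to 25.6 ± 0.394 TPM. Il21r, the IL-21 receptor chain encoded next to Il4ra, had 77.0, 73.0 and 89.2 TPM with DMSO and 81.4, 93.7 and 90.8 TPM with ponatinib. Its groups overlapped through DMSO replicate 3, and the difference of 0.15 (95% interval -0.05 to 0.35) did not pass (adjusted p = 0.194). Without that library it was 0.24 and passed (adjusted p = 0.0160).

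The kinase genes went opposite ways. Jak1, whose product binds the private chains and also serves interferon receptors, had 79.7, 79.8 and 81.9 TPM with DMSO and 132, 116 and 119 TPM with ponatinib. It rose by 0.59 on the log2 scale (SE 0.06, limma adjusted p = 4.98e-04), from 80.5 ± 1.26 to 122 ± 8.61 TPM. Jak3, whose product binds the common gamma chain alone, had 66.9, 74.5 and 76.1 TPM with DMSO and 47.3, 51.0 and 45.3 TPM with ponatinib. It fell by 0.59 (SE 0.07, limma adjusted p = 9.30e-04), from 72.5 ± 4.88 to 47.9 ± 2.92 TPM. In neither gene did the groups come near each other. Both calls held under every alternative in which the gene was tested; with a minimum mean of 100 TPM Jak3 was not. Jak1 (ENSMUSG00000028530) spans bases 101152367 to 101265282 of chromosome 4 (minus strand), and Jak3 (ENSMUSG00000031805) bases 71676296 to 71690575 of chromosome 8 (plus strand).

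Stat5a and Stat5b encode closely related STAT5 proteins that receptors of the family activate together. Stat5a had 29.4, 27.7 and 44.6 TPM with DMSO and 40.2, 44.2 and 47.0 TPM with ponatinib. DMSO replicate 3 lay within the ponatinib range and the other controls below it. The log2 fold change of 0.39 (95% interval 0.01 to 0.77) did not pass (limma adjusted p = 0.0933); without DMSO replicate 3 it was 0.60 and passed (adjusted p = 2.43e-04). Stat5b had 37.7, 37.3 and 49.2 TPM with DMSO and 38.4, 38.0 and 38.4 TPM with ponatinib. Apart from DMSO replicate 3 its values were nearly level, and the difference was -0.10 (95% interval -0.34 to 0.14, adjusted p = 0.470). It was 0.03 without that library. The genes share sequence: of all stretches of 31 bases in annotated Stat5a transcripts 11.5% also occur in Stat5b, and of those in Stat5b 15.1% in Stat5a, so reads from these parts had to be divided by estimation.

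**Figure D1:**
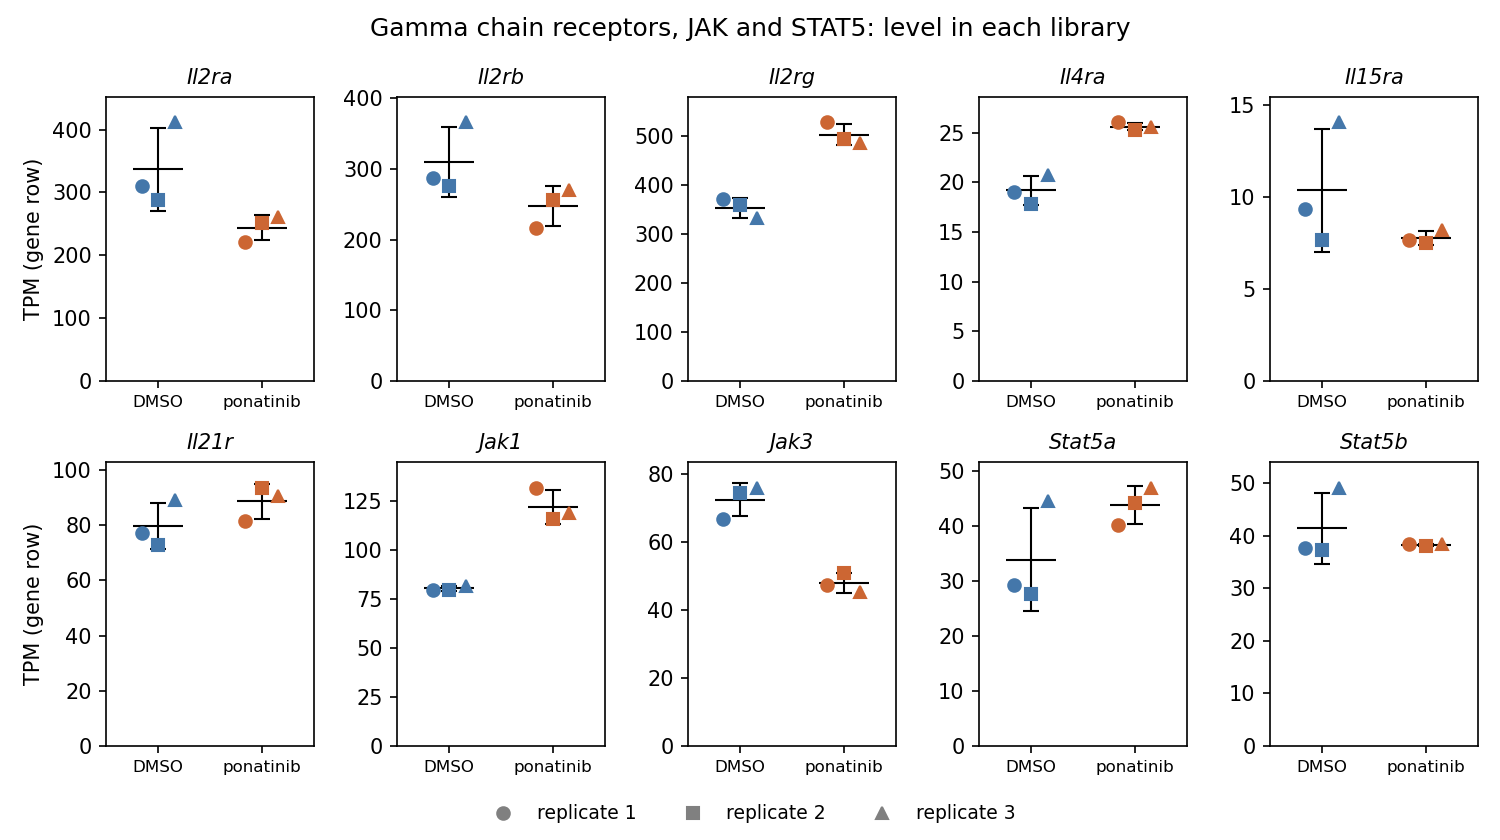
TPM of each gene (vertical axis, from 0) in the DMSO and ponatinib libraries; symbols are replicates, and the black line and bar are the mean and SD of 3 libraries. Il2rg and Jak1 sit higher and Jak3 lower with ponatinib without overlap, and the triangle of DMSO replicate 3 is the highest DMSO value in 9 of the 10 panels.

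DMSO replicate 3 had the highest DMSO value in 9 of the 10 genes, Il2rg being the exception with its lowest. Over all tested genes that library was the highest control in 62.9%. Without it 53.2% of tested genes were called, 42.7% higher and 10.5% lower, and 7 of the 9 genes here, 5 higher and 2 lower. Its gene rows of the mitochondrial genome held 4.78% of TPM, against 9.76% and 10.7% in the other DMSO libraries and 7.16% to 8.19% with ponatinib. Across tested genes (not independent replicates) Spearman's rho was 0.981 to 0.995 within DMSO, 0.992 to 0.996 within ponatinib and 0.941 to 0.967 between groups. What part this library's state had in the values above was not tested beyond leaving it out.

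**Figure D2:**
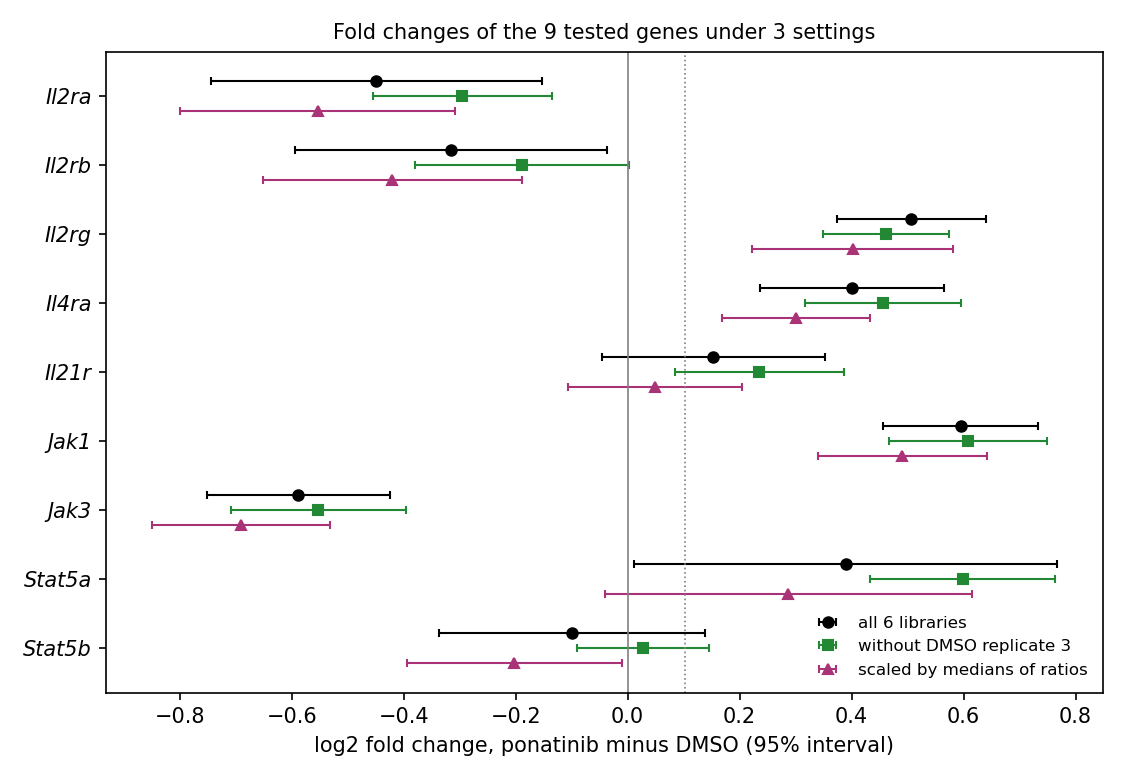
Log2 fold change, ponatinib minus DMSO, with its 95% interval for the 9 tested genes (rows), with all 6 libraries, without DMSO replicate 3 and with libraries scaled by medians of ratios; the dotted line is the median of all tested genes, 0.10. Jak1, Il2rg and Il4ra stay above 0 and Jak3 and Il2ra below it in all 3 settings, while Stat5b is at -0.10, 0.03 and -0.20.

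Scaling by medians of ratios divides each library by 1 factor, so it shifted all genes nearly alike. That their order stayed was therefore set in advance. The median log2 fold change of all tested genes was 0.10 as deposited and 0.00 with medians of ratios, under which 34.4% of tested genes were called, 1059 higher (16.4%) and 1166 lower (18.0%), in place of 1931 and 639. Higher genes then made up 47.6% of the called genes, in place of 75.1%. Relative to the median as deposited, Jak1 lay at 0.49, Il2rg at 0.40 and Il4ra at 0.30, and Jak3 at -0.69, Il2ra at -0.55 and Il2rb at -0.42.

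By gene rows, the order of the levels differed between the groups. With DMSO the means ran from Il2rg over Il2ra to Il2rb, at 354, 336 and 309.3 TPM, and these 3 overlapped in range. Il21r, at 79.8 TPM, overlapped with both Jak1 at 80.5 TPM and Jak3 at 72.5 TPM, but Jak1 lay above Jak3 in range. Stat5b and Stat5a, at 41.4 and 33.9 TPM, overlapped, while Il4ra and Il15ra stood apart below. With ponatinib Il2rg stood alone at the top, at 503 TPM, over Il2rb and Il2ra at 247 and 244 TPM, which overlapped. Jak1, at 122 TPM, was then clear of Il21r at 88.6 TPM, Jak3 at 47.9 TPM overlapped with Stat5a at 43.8 TPM, and Stat5b at 38.3 TPM was below Stat5a in range. With transcript rows added to their gene the order was another: with DMSO Il4ra then stood at 77.0 TPM, above Jak3, and Stat5a at 51.7 TPM, above Stat5b.

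Ratios between genes within a library do not depend on how that library was scaled. The Jak1/Jak3 ratio was 1.19, 1.07 and 1.08 with DMSO and 2.79, 2.27 and 2.63 with ponatinib. Ponatinib libraries were all higher, by 2.30 times in geometric mean. For Il2ra/Il2rg the ratio was 0.834, 0.805 and 1.24 with DMSO and 0.418, 0.507 and 0.536 with ponatinib, all lower by 1.94 times. Il2ra/Il2rb was nearly 1 in every library, between 1.05 and 1.12 with DMSO and between 0.962 and 1.02 with ponatinib. Stat5a/Stat5b was 0.778, 0.743 and 0.908 with DMSO and 1.05, 1.16 and 1.23 with ponatinib. So Stat5b was the more abundant in each DMSO library and Stat5a in each ponatinib library, DMSO replicate 3 included, by gene rows; with transcript rows added to their gene Stat5a was the more abundant in all 6. Of 8 pairs compared, 6 did not overlap between groups, as did not 52.8% of all pairs of tested genes, and each of these had an exact two-sided permutation p of 0.10 (0.133 adjusted over the 8), the smallest that 3 against 3 allows. Il4ra/Il2rg and Il15ra/Il2rb overlapped (exact permutation p of 0.60 and 0.80).

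**Figure D3:**
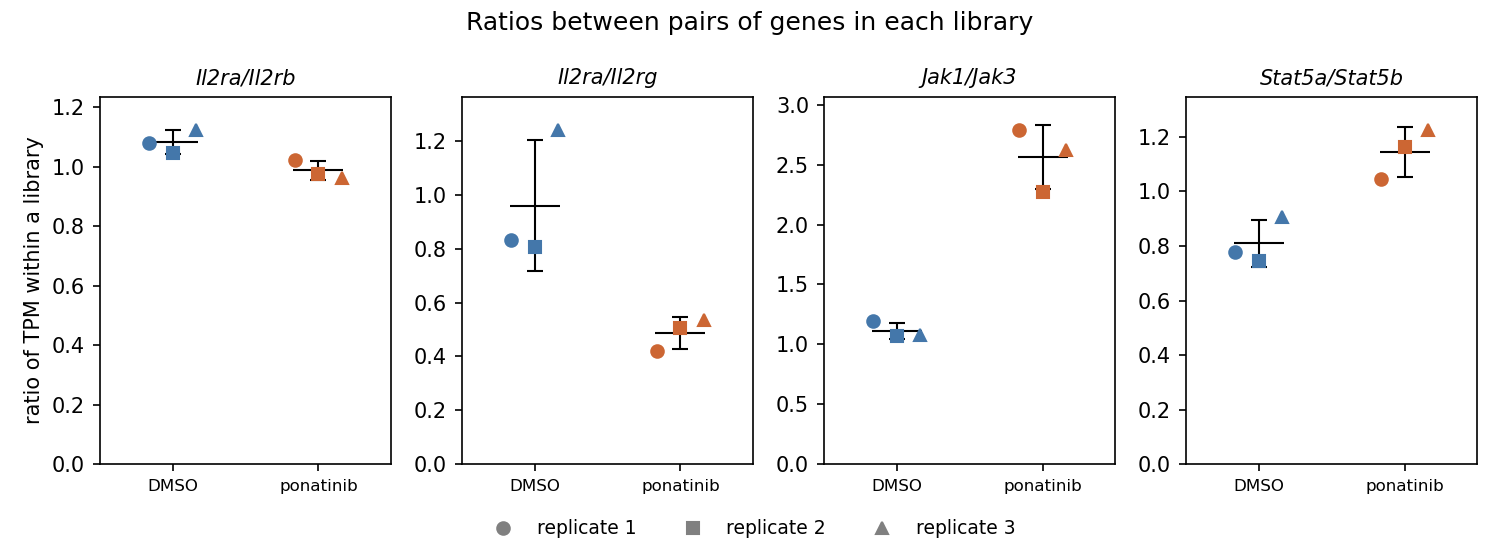
Ratio of TPM within each library (vertical axis, from 0) for 4 pairs of genes, with symbols as replicates and the mean and SD of 3 libraries in black. Jak1/Jak3 goes from 1.07 to 1.19 with DMSO to 2.27 to 2.79 with ponatinib, and Stat5a/Stat5b is below 1 in the DMSO libraries and above 1 in the ponatinib libraries.

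For Il4ra the call depended on which transcripts were counted. Beside gene rows, the deposited table has separate rows for transcripts that the annotation does not tag as basic, and 6 of the 10 genes have 10 such rows, 4 of them with a mean of at least 10 TPM. The row of the transcript Il4ra-205 was more abundant than the Il4ra gene row itself, at 53.7, 52.0 and 65.5 TPM with DMSO and 55.5, 60.3 and 54.5 TPM with ponatinib. These groups overlapped, and in a fit of gene and transcript rows together, chosen after seeing the data, its log2 fold change was 0.00 (95% interval -0.22 to 0.22, limma adjusted p = 0.998). Its share of all Il4ra TPM was 73.8%, 73.8% and 74.4% with DMSO and 67.0%, 69.5% and 67.1% with ponatinib, lower in all 3 (exact permutation p = 0.10, the smallest possible). With transcript rows added to the gene, Il4ra went from 77.0 ± 9.54 to 83.6 ± 2.82 TPM, and the log2 fold change of 0.12 did not pass (limma adjusted p = 0.296). In that fit 36.4% of 6816 tested genes were called, 27.3% higher and 9.13% lower.

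Il4ra-205 carries an extra exon with a stop codon, and in mice a secreted form of the IL-4 receptor is known to be made from a transcript with an exon inserted before the transmembrane part. The exon is number 8 of 12, has 114 bases and lies at 125571934 to 125572047 of chromosome 7 (GRCm38, plus strand), and no transcript of the basic set has it. Its stop codon follows after 17 bases. The line gives, 5′ to 3′, the last 30 bases of the exon before and the new exon up to the stop codon, which is in capitals, as annotated in GENCODE.
Il4ra-205: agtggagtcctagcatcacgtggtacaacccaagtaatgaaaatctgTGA
The annotation classes this transcript as subject to nonsense-mediated decay, the removal of messages with an early stop. It shares 96.9% of its 3696 bases with exons of the basic set and also ends 1507 bases before the longest of them, so its level rests on how reads were divided by estimation and on the end of the message as well as on the exon.

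**Figure D4:**
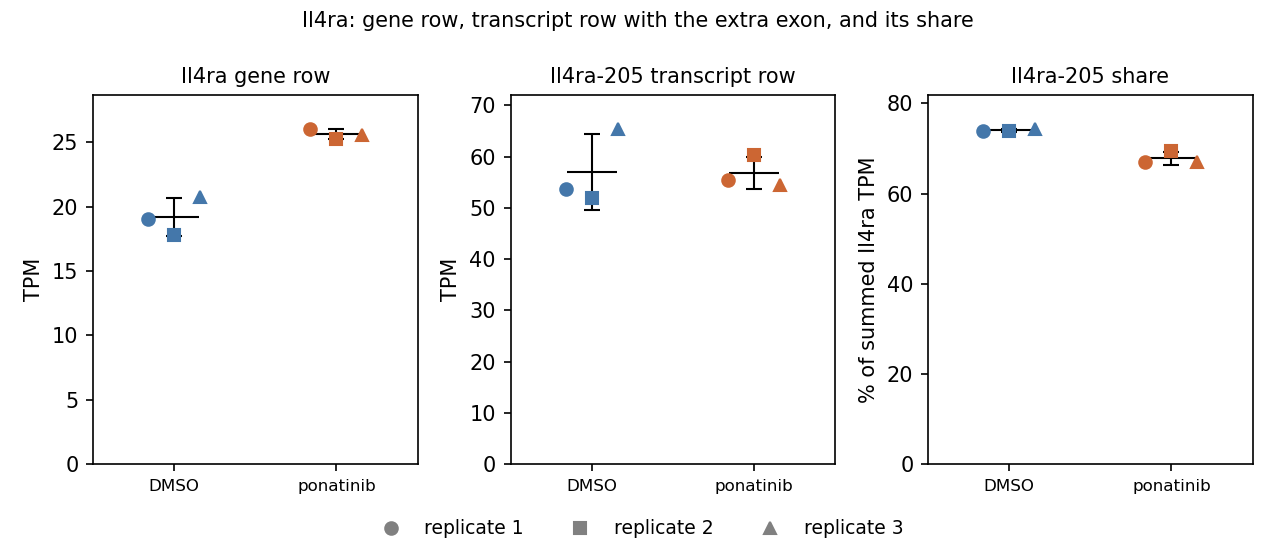
Il4ra gene row (TPM), Il4ra-205 transcript row (TPM) and the transcript's share of summed Il4ra TPM (percent) in each library, from 0, with the mean and SD of 3 libraries in black. The gene row is higher with ponatinib in all 3 libraries, the transcript row overlaps between groups, and the share is 73.8% to 74.4% with DMSO and 67.0% to 69.5% with ponatinib.

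Of the 10 genes, 6 are neighbours in pairs, which the choice by name did not use. Il2ra and Il15ra lie 12096 bases apart on chromosome 2, Il4ra and Il21r 23954 bases apart on chromosome 7, and Stat5b and Stat5a 8626 bases apart on chromosome 11. In the first pair both had the highest level in DMSO replicate 3 and lower means with ponatinib, though Il15ra was not tested. That library was also the highest control in 9 of the 10 genes and in 62.9% of all tested genes. In the second pair the Il4ra gene row rose and Il21r did not pass. With transcript rows added to their gene, neither passed (log2 fold changes of 0.12 and 0.15). In the third the Stat5a and Stat5b differences were 0.39 and -0.10, neither past the test.

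Genes with the most similar profile were looked up for the 3 IL-2 receptor chains, by the root mean square difference of centred log2(TPM + 1) over the 6 libraries. For Il2rg these were Cd8a, a chain of the CD8 coreceptor (0.03), and the T cell receptor segment Trbv12-1 (0.03). Cd8a stood at 245, 241 and 227 TPM with DMSO and at 371, 331 and 335 TPM with ponatinib. For Il2ra they were D630039A03Rik (0.03) and the zinc transporter gene Slc39a10 (0.03), the latter at 16.3, 14.5 and 21.6 TPM with DMSO and 11.7, 12.6 and 13.7 TPM with ponatinib. For Il2rb they were Gpn2 and Tcf3, which encodes an E protein transcription factor, both at 0.06. This is a description over 6 libraries that fall into 2 groups.

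Of 4 other receptor genes listed with the family, not all of which pair with the common gamma chain, 2 were tested and 1 rose. Il7r, the IL-7 receptor chain of naive and memory T cells, had 7.13, 6.29 and 17.2 TPM with DMSO and 51.4, 28.8 and 30.9 TPM with ponatinib, and rose by 1.85 on the log2 scale (SE 0.35, limma adjusted p = 0.00546). Crlf2, the TSLP receptor chain that pairs with it, was at 29.9 ± 4.51 and 37.1 ± 4.78 TPM (0.31, adjusted p = 0.0862), and passed without DMSO replicate 3 (0.40, adjusted p = 0.0141). Il9r and Il13ra1 stayed under 0.23 TPM in all libraries. Of 8 cytokine genes listed with the family, not all of which act through that chain, Il2 alone reached a mean of 10 TPM. The other 7 stayed at or under 1.69 TPM in every library. Il2 was at 12.6 ± 2.74 and 14.7 ± 1.60 TPM and did not pass (0.22, adjusted p = 0.255); it was 0.38 and passed without DMSO replicate 1 (adjusted p = 0.0466) and 0.11 without DMSO replicate 3 (adjusted p = 0.477).

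Among 6 other JAK and STAT genes, all tested, 1 rose and 3 fell, where 29.9% and 9.88% of all tested genes did. Jak2, a kinase of other cytokine receptors, rose from 34.7 ± 4.51 to 46.4 ± 1.43 TPM (log2 fold change 0.42, limma adjusted p = 0.00888). Stat4, which serves IL-12, fell from 70.2 ± 4.46 to 56.6 ± 1.45 TPM. Stat2 and Stat3 fell by 0.93 and 0.55, with DMSO replicate 3 at 24.4 and 120.2 TPM against 9.64 to 11.0 and 69.3 to 74.7 TPM in the other controls. Without ponatinib replicates 1, 2 or 3, or with no filter or robust empirical Bayes, 1 of the 6 was lower. Of all tested genes 468, 463, 467, 940 and 625 were lower in these settings, in the same order, in place of 639. Without DMSO replicate 3 Stat3 was at -0.30 (adjusted p = 0.00249) and Stat2 under the minimum mean.

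Genes known to respond to IL-2 and STAT5 split, with 4 higher and 5 lower of 16 tested (18 listed) and a median of -0.02 against 0.10 for all tested genes. Over all tested genes 29.9% were higher and 9.88% lower. Pim2, a survival kinase, fell from 332 ± 38.0 to 188 ± 14.5 TPM (log2 fold change -0.81, limma adjusted p = 6.94e-04), and Socs2, a feedback inhibitor, fell by 0.34 on the log2 scale. Bcl2, Myc and Gzmb, named after their values were seen, fell by 0.62, 0.48 and 0.69. Without DMSO replicate 3 Myc was at -0.31 and Gzmb at -0.43, and both lost their call without ponatinib replicates 1, 2 or 3. Lta, lymphotoxin alpha, rose from 196 ± 21.7 to 279 ± 29.8 TPM, Id2, a regulator of effector differentiation, by 0.48, the survival gene Mcl1 by 0.44 and its relative Bcl2l1 (also named after the fact) by 0.32, a call lost without DMSO replicate 1 or ponatinib replicates 2 or 3. Cish, a direct STAT5 target looked at afterwards, was at 77.7 ± 12.9 and 76.2 ± 3.54 TPM (95% interval of the log2 difference -0.26 to 0.23, adjusted p = 0.918). Without DMSO replicate 3 there were 7 higher, where 42.7% of all tested genes were. Without ponatinib replicates 1, 2 or 3 there were 2, 3 and 3 lower. Of all tested genes 468, 463 and 467 were lower then, in place of 639.

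Inhibitors of the pathway had 1 of 9 tested genes (15 listed) higher and 2 lower, against all-gene shares of 29.9% and 9.88%. The membrane phosphatase gene Ptprc, encoding CD45, rose from 276 ± 16.7 to 352 ± 10.9 TPM, while the phosphatase gene Ptpn6 fell from 176 ± 1.59 to 147 ± 2.80 TPM along with Socs2. Pias1, at 11.1 ± 0.153 and 12.9 ± 0.768 TPM, did not pass (limma adjusted p = 0.0698). The Socs2 call was lost without DMSO replicate 1 (adjusted p = 0.0584) or ponatinib replicate 1 (adjusted p = 0.0646), which left 1 lower. Of all tested genes 504 and 468 were lower then, in place of 639. With transcript rows added to their gene 3 inhibitors were higher (27.3% of all tested genes), and without DMSO replicate 3 there were 2 (42.7% of all tested genes).

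In the PI3K and RAS arm of the IL-2 receptor 7 of 10 tested genes (13 listed) were higher and 0 lower, beside 29.9% and 9.88% of all tested genes. The median was 0.24 against 0.10 for all tested genes. Pik3cd, the main PI3K catalytic subunit of lymphocytes, rose from 123 ± 7.07 to 154 ± 0.666 TPM (limma adjusted p = 0.00283). Akt2 and Akt1, kinases downstream of PI3K, rose by 0.19 and 0.25 and the phosphatase gene Ptpn11 by 0.23 on the log2 scale. With medians of ratios, under which 16.4% of all tested genes were higher, 1 gene of the 10 was. With quantile normalization there were 3, where 1276 of all tested genes were higher, in place of 1931. Without DMSO replicates 1, 2 and 3 there were 2, 3 and 10 higher, where 1297, 1461 and 2745 of all tested genes were. Without ponatinib replicates 1, 2 and 3 there were 3, 1 and 1, where 1529, 1197 and 1138 of all tested genes were. Of all tested genes 42.7% were higher without DMSO replicate 3.

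Of 10 tested cytokine receptor genes outside the family (16 listed), 3 rose and 2 fell (all tested genes, 29.9% and 9.88%), with a median of 0.02 against 0.10. Il12rb2, the inducible IL-12 receptor chain, averaged 125 ± 51.4 TPM with DMSO and 33.5 ± 3.73 TPM with ponatinib and fell by 1.80 on the log2 scale (limma adjusted p = 0.00132). Il10ra, named after its value was seen, fell by 0.91, was at -0.59 without DMSO replicate 3 and lost its call without ponatinib replicates 1, 2 or 3. Tgfbr2, a receptor for TGF-beta, rose from 16.5 ± 1.86 to 28.1 ± 2.37 TPM, Il27ra from 35.5 ± 0.461 to 47.7 ± 1.35 TPM and Il6st, the shared chain of the IL-6 family, from 8.94 ± 0.639 to 13.7 ± 2.60 TPM. With a minimum of 1 TPM, which tested all 16 listed, 8 were higher. Of all genes tested in that setting 2398 were higher, in place of 1931. How many genes that setting tested is not given here, so no share over all genes stands beside the 8. Without DMSO replicate 3 there were 5, where 42.7% of all tested genes were higher. Without ponatinib replicates 1, 2 or 3 there was 1 lower, where 468, 463 and 467 of all tested genes were, in place of 639.

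**Figure D5:**
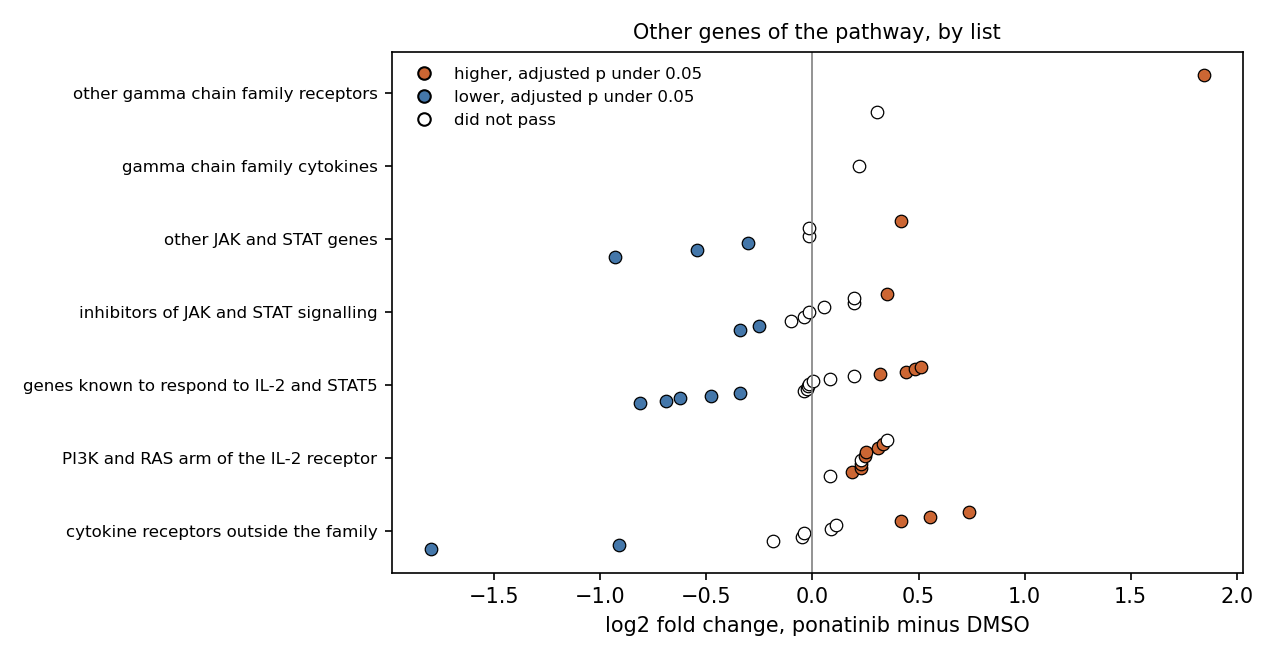
Log2 fold change, ponatinib minus DMSO (horizontal axis), of each tested gene in the 7 lists of other pathway genes; filled points passed at an adjusted p under 0.05, orange higher and blue lower, and open points did not pass. Il7r is farthest right at 1.85 and Il12rb2 farthest left at -1.80, and most lists hold points on both sides of 0.

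The libraries had the markers of their label, and markers of other cells were low, with sums that were higher in every ponatinib library for all lists of other cells but the dendritic one. Cd8a and Cd8b1, each higher in every ponatinib library, summed to 544 to 574 TPM with DMSO and 748 to 888 TPM with ponatinib. The 5 T cell markers, of which Cd3e alone was higher in every ponatinib library, summed to 1043 to 1064 and 1096 to 1222 TPM. Of 4 CD4 T cell markers 3 were higher in every ponatinib library and Zbtb7b lower; they summed to 5.21 to 9.53 and 16.4 to 19.7 TPM, and Foxp3, of regulatory T cells, which also use Il2ra, went from 0.778 to 1.37 up to 6.78 to 10.4 TPM. The 7 B cell markers, of cells that also express Il4ra and Il21r, summed to 7.34 to 14.1 and 17.6 to 19.9 TPM, 3 of them higher in every ponatinib library. Sums for myeloid cells (4 of 7 markers higher) were 1.67 to 2.27 and 4.19 to 6.24 TPM, and for erythroid cells and platelets (3 of 8) 0.853 to 1.89 and 4.23 to 8.37 TPM. NK cell markers (3 of 4) summed to 0.0191 to 0.156 and 0.492 to 0.894 TPM, and the overlapping sums for dendritic cells (2 of 5, Siglech at 0 in all 6) were 0.912 to 1.20 and 1.19 to 1.89 TPM. The part of such cells in the results was not tested, and in bulk RNA fewer cells of a type and less RNA per cell cannot be told apart.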

How the data were processed

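RNA sequencing libraries were made from total RNA with a NEBNext Ultra II RNA kit, per the labels' protocols, which do not say whether strand was kept. Without giving roles, fastp 0.19.5, Salmon 1.5.1, DESeq2 1.22.1 and GRCm38 are listed in the submitters' processing notes. The authors deposited 1 table whose columns each add up to 1000000, so its values were treated as TPM; its name speaks of normalized counts, and the design written beforehand allowed for either. Such values hold no depth. Read numbers are therefore unknown, and precision rests on 3 libraries per group (median SE of a log2 fold change 0.07).

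Of 43072 rows, 22095 were gene rows and 20977 transcript rows. Names came from GENCODE mouse M21 (GRCm38) by identifier without version, found for 22011 gene rows and 20793 transcript rows; 11 versions were the same, so the authors used another release. Transcript rows held 6.76% to 7.10% of TPM. Gene rows alone were used, and adding transcript rows was an alternative.

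Gene rows with a mean of at least 10 TPM were compared with limma 3.58.1 (R 4.3.3; lmFit, eBayes with intensity trend, two-sided) on log2(TPM + 1), which understates changes of low genes, and called at a Benjamini-Hochberg adjusted p under 0.05 over all tested genes. Each adjusted p of a gene is from limma. On simulated data with 6466 genes it recovered 83% of 100 changes of 0.5 and 94% of 100 changes of 1 on the log2 scale. Of the calls there 5.35% were false. The simulation drew independent values and changed 200 genes, so it held no deviating library such as DMSO replicate 3. It also had far fewer changed genes than the 39.7% called here. Ratios were tested by exact permutation (scipy 1.17.1). The genes, lists and tests were chosen with earlier results of these data known. Named were all 10 genes, the other receptors listed with the family, up to 4 tested genes of each other list with the smallest p, and the 2 nearest profiles of Il2ra, Il2rb and Il2rg. A gene of the lists is not reported here and was left out of their counts.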

Additional observations from a re-analysis of the deposited data

Results flagged for a closer look

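A signal outside the gene rows was found in Il2rg-203, a transcript of 597 bases in 5 exons that lie wholly within exons of Il2rg's basic transcripts. Its row had 34.0, 46.8 and 36.5 TPM with DMSO and 83.0, 64.8 and 76.4 TPM with ponatinib, so each ponatinib library was above each DMSO library. The mean of 74.8 ± 9.20 TPM against 39.1 ± 6.75 TPM was 1.91 times as high (log2 fold change 0.92, SE 0.14, limma adjusted p = 0.00370 in a fit of gene and transcript rows together, chosen after seeing the data). With this row added to its gene, Il2rg had a log2 fold change of 0.56 (adjusted p = 6.47e-04). Because all of its bases are shared, its level rests on how reads were divided by estimation.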

How the results depend on the processing

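Jak1, Jak3 and Il2rg kept their direction and call under every alternative in which they were tested, with log2 fold changes of 0.54 to 0.63, -0.64 to -0.55 and 0.46 to 0.54 when 1 library was left out. Il4ra was at 0.35 to 0.46 with 1 library left out, 0.30 after scaling by medians of ratios and 0.31 after quantile normalization, and kept its call in every alternative in which it was tested except with transcript rows added (0.12); with a minimum mean of 100 TPM it was not tested. Il2ra ranged from -0.55 to -0.30 with 1 library left out and lost its call without filter (-0.45, adjusted p = 0.0727). Il2rb ranged from -0.39 to -0.19 and passed with medians of ratios (-0.42) and quantile normalization (-0.36). Il21r ranged from 0.092 to 0.24, Stat5a from 0.26 to 0.60 and Stat5b from -0.17 to 0.027, where its sign changed without DMSO replicate 3. Among ratios, 6 kept their direction, while Il15ra/Il2rb ranged from -0.17 to 0.065 on the log2 scale, above 0 without DMSO replicate 3 and, at 0.0029, without ponatinib replicate 2, and Il4ra/Il2rg ranged from -0.15 to 0.015, above 0 without DMSO replicate 3.

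With 1 library left out, 3 to 5 of the described genes were higher and 1 to 2 lower, all genes gave 1138 to 2745 higher and 463 to 677 lower, and the 50 tested pathway genes (17 higher and 11 lower) gave 10 to 26 and 5 to 11. Lower counts without filter were 1 described gene and 6 pathway genes. A minimum mean of 100 TPM, which tests fewer genes, gave 428 higher and 137 lower, 1 described gene lower, and 7 and 4 pathway genes. Medians of ratios gave 1059 higher and 1166 lower, with 11 pathway genes higher, and quantile normalization 1276 and 1001. Of 472 refits of 29 named genes outside the described ones, 413 kept their call, 56 lost it, 3 gained it and 0 changed sign. Bcl2, Myc, Gzmb, Bcl2l1, Cish and Il10ra, named after their values were seen, are not among these 29. Otherwise the cause of a changed call was not tested.

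The titles number the replicates, but the labels do not tell whether equal numbers share an animal or culture. Deviations from the group means correlated at -0.10, 0.13 and 0.01 across genes for replicates 1, 2 and 3. With 3 libraries per group these values cannot decide whether the samples are paired. With the replicate number as a block, 1911 genes were higher and 646 lower, and Il2rb (-0.32, adjusted p = 0.0189) and Stat5a (0.39, adjusted p = 0.0338) passed.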
